A study of Mus musculus with 15 samples.

Results

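The narrow high-level H3K27ac regions are stretches of mouse nucleus accumbens chromatin with high read counts for acetylated histone H3, not set against input. These counts differed little between cocaine and saline. The regions were taken from the authors' deposited list of 49712 H3K27ac regions by 3 limits. A region had to lie on chromosomes 1 to 19, be shorter than 3000 bp and have a mean of at least 550 normalised read counts per kb over 6 libraries. Its ratio of the cocaine mean to the saline mean also had to lie within 0.15 of 0 on the log2 scale. The limits kept 6680 regions, or 13.4% of the list and 13.6% of its 49298 autosomal regions. Length, level and ratio are therefore properties of the choice, and the values of these 3 quantities below are descriptions without a test.

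Tissue came from the nucleus accumbens of C57BL/6 mice, a ventral striatal part of the reward circuit. The cocaine group received 7 daily intraperitoneal injections at 20 mg/kg, and the other group, labelled saline, also received 7 daily injections. The H3K27ac ChIP-seq libraries numbered 3 per treatment, each treatment having 1 input library beside them, and captured 5-hydroxymethylcytosine (5hmC) was sequenced in another 3 libraries per treatment. Neither the separateness of the animals behind the libraries nor their number is stated in the labels, so p-values cover the spread among libraries alone, and that spread may be technical. The replicate numbers used here only name libraries, in the order of the file headers for H3K27ac and of the table for 5hmC. Because the tissue was profiled in bulk, more cells carrying the mark and more mark per cell cannot be told apart.

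H3K27ac is the acetylation of lysine 27 on histone H3, written by the acetyltransferases CBP and p300 and removed by histone deacetylases. It marks active promoters and active enhancers, and broad blocks of it lie over genes that define a cell type. In the nucleus accumbens, repeated cocaine is known to alter histone acetylation at selected genes, against a background of active chromatin that neurons and glia hold in common. 5hmC is made from 5-methylcytosine by the Tet enzymes and is abundant in brain, within genes and at enhancers. Positions below are in the mm9 build, and no mm9 annotation was used here, so the regions are given by position and not by gene.

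The regions had a median length of 1500 bp and a median level of 647 normalised counts per kb, against 1200 bp and 373 per kb in the whole list. Together they covered 10.4 Mb. Of the 6680 regions, 1419 (21.2%) were exactly 1000 bp long, which is the width of the caller's window, 3461 were 1100 to 1900 bp and 1800 were 2000 to 2900 bp. Levels ran from 550.03 to 1268 per kb, and the interquartile range was 579.5 to 739.8 per kb. Most of them thus stood close above the limit. The share of a chromosome's listed regions that met the limits ran from 8.99% on chromosome 13 to 16.8% on chromosome 19. On the X chromosome, 29 regions would have met the 3 other limits.

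**Figure D1:**
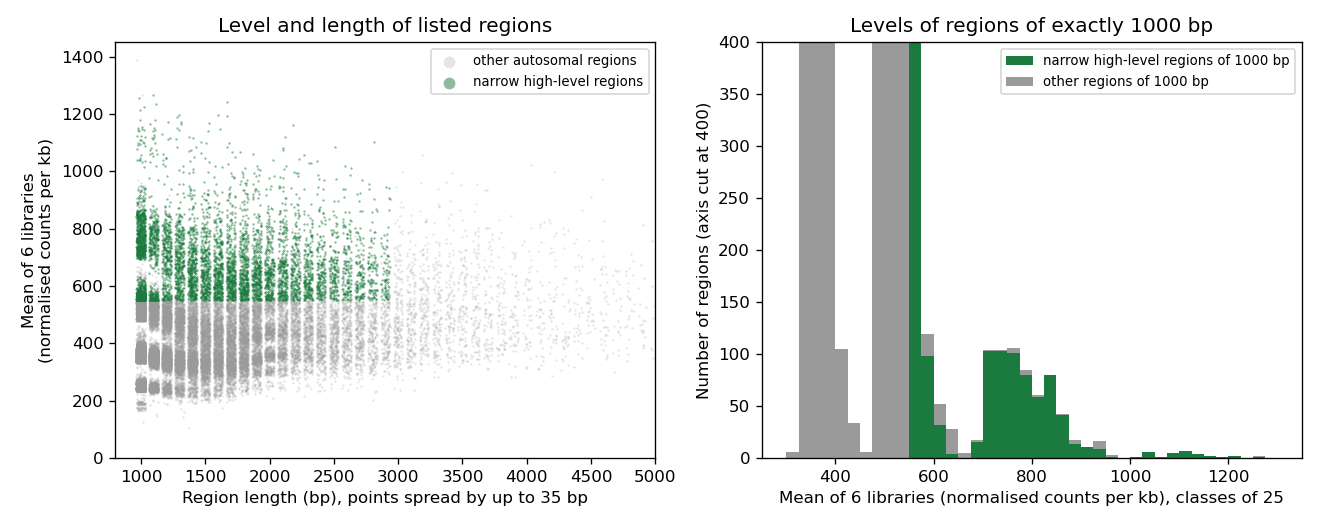
Left, the mean level of the 6 libraries in normalised counts per kb against region length in bp, 1 point per autosomal region, with the 6680 chosen regions in green and the others in grey. Right, stacked numbers of autosomal regions of exactly 1000 bp in level classes of 25 per kb. The chosen regions form groups from 550 to 625 and from 700 to 875 per kb with few between. The lower group is cut at the limit of 550 per kb and goes on below it among the other regions, down to 475 per kb.

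Levels of the regions of exactly 1000 bp were not spread evenly. Between 550 and 625 per kb the list held 831 autosomal regions of this length, 768 of them chosen. Of the 831, 660 lay from 550 to 575 per kb and 52 from 600 to 625 per kb. Below the limit this crowd went on, with 733 regions from 525 to 550 per kb and 664 from 475 to 500 per kb. The lower edge at 550 per kb is therefore the limit itself. Between 625 and 700 per kb the list held 50, of which 19 were chosen, and between 700 and 875 per kb it held 582, of which 567 were chosen. A further 47 regions lay between 875 and 1000 per kb and 31 between 1000 and 1300 per kb. The regions between the crowded bands differed more between cocaine and saline. Their median absolute log2 ratio was 0.17 from 625 to 700 per kb and 0.12 from 875 to 1000 per kb, against 0.039, 0.031 and 0.033 in the 3 bands around them. All 47 regions from 875 to 1000 per kb were lower in cocaine. These bands were drawn after the values were seen, and their origin was not tested.

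The highest level was found at chr3:152643801-152644900, where the cocaine libraries had 1360.1, 1333 and 1396 normalised counts and the saline libraries 1409, 1337 and 1535. The groups overlapped, and the third saline library was the highest of the 6. Next came chr19:5050901-5051900, with 1258, 1241 and 1234 normalised counts in cocaine and 1233, 1244 and 1322 in saline. The cocaine values there lay close together, and again the third saline library stood above the rest. At chr12:88222501-88224200 the cocaine libraries had 2005, 2017 and 2098 normalised counts and the saline libraries 2187, 2059 and 2306. Its log2 ratio was -0.099, the largest in size among the 10 highest regions. Only 1 of those 10, chr4:154608101-154609100, was higher in cocaine, with 1239, 1218 and 1235 normalised counts in cocaine and 1208, 1185 and 1258 in saline. The third saline library was the highest of the 6 there too.

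The limits cut through a continuous range. Just inside the limit on level lay chr10:86169001-86170000 at 550.03 per kb, and just outside lay chr10:74559801-74561300 at 549.98 per kb. On the log2 scale the nearest regions were chr19:24550701-24551700 inside at -0.14998 and chr15:89009701-89011100 outside at -0.15008. On length, 82 chosen regions measured 2900 bp, and 61 autosomal regions at 550 per kb or more measured 3000 bp. Beyond the limit on the ratio, 513 narrow regions of this level were lower in cocaine by 0.15 or more, and 1 was higher by as much.

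Although every region had to differ little, the ratios were not centred on 0. The mean was lower in cocaine at 4874 regions (73.0%) and higher at 1806, with a median log2 ratio of -0.037. In the whole list 52.6% of regions were lower in cocaine, with a median of -0.019. In the narrow autosomal regions under 550 per kb 48.5% were, with a median of 0.016. In the 592 autosomal regions of at least 3000 bp and the same level, called broad here, 72.8% were, with a median of -0.053. None of these sets had a limit on the ratio. The ratios ran from -0.15 to 0.13, and 56.9% of the regions were within 0.05 of 0. In classes of 0.025, the counts had a peak on each side of 0, with 1599 regions from -0.05 to -0.025 and 859 from 0.025 to 0.05. The classes next to 0 held 674 regions below it and 667 above it. After cyclic loess scaling, which evens out trends with level between libraries, 58.5% of the regions were lower in cocaine and their median was -0.0085. In the whole list that scaling gave 49.4% lower and a median of 0.0026.

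**Figure D2:**
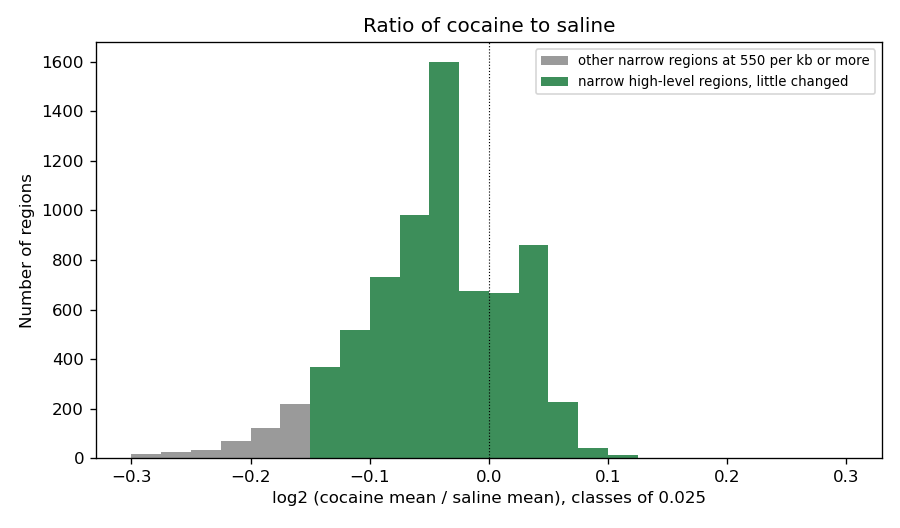
Histogram of the log2 ratio of the cocaine mean to the saline mean in classes of 0.025, with the 6680 chosen regions in green and the other narrow regions at 550 per kb or more in grey. The counts peak at 1599 regions from -0.05 to -0.025 and at 859 from 0.025 to 0.05, and the grey regions beyond 0.15 lie almost all on the lower side.

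The excess of lower values differed with length. Among the regions of 1000 bp, 36.7% were higher in cocaine, against 27.9% of those of 1100 to 1900 bp and 17.8% of those of 2000 to 2900 bp. Level showed less of an order, with 37.2% higher among the 1670 regions of lowest level and 22.9%, 25.3% and 22.7% in the next 3 sets of 1670 by level. Across the 6680 regions Spearman's rho between length and log2 ratio was -0.23, and between level and log2 ratio it was -0.089. The points of these correlations share the same 6 libraries. Every one of the 19 chromosomes had more lower than higher regions, from 21.5% higher on chromosome 14 to 32.2% on chromosome 12.

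By library, the regions had a median of 638.2, 635.3 and 639.8 normalised counts per kb in cocaine, against 653.7, 640.9 and 676.7 in saline. The second saline library lay just above the cocaine libraries, and the third saline library stood apart from all the others. It gave the highest of the 6 values at 63.2% of the regions, compared with 31.6% of the whole list, and the lowest at 3.61%. Of all normalised counts in the list, the regions held 22.6% ± 0.0539 in cocaine, as mean ± SD of 3 libraries, and 22.9% ± 0.298 in the 3 saline libraries. The 3 cocaine libraries had 22.6%, 22.5% and 22.6%, and the 3 saline libraries 22.8%, 22.6% and 23.2%, so the groups overlapped. Without the third saline library the median log2 ratio was -0.018 and 65.2% of the regions were lower in cocaine. Leaving out any other single library gave a median between -0.054 and -0.036. Summed over the listed regions, reads numbered 32026655 to 33098488 in the cocaine libraries and 29805038 to 32921666 in the saline libraries. Reads in bases that listed regions share enter these sums, and the shares of counts above, more than once. The sum was lowest in the third saline library. The part of depth in that library's values was not tested.

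**Figure D3:**
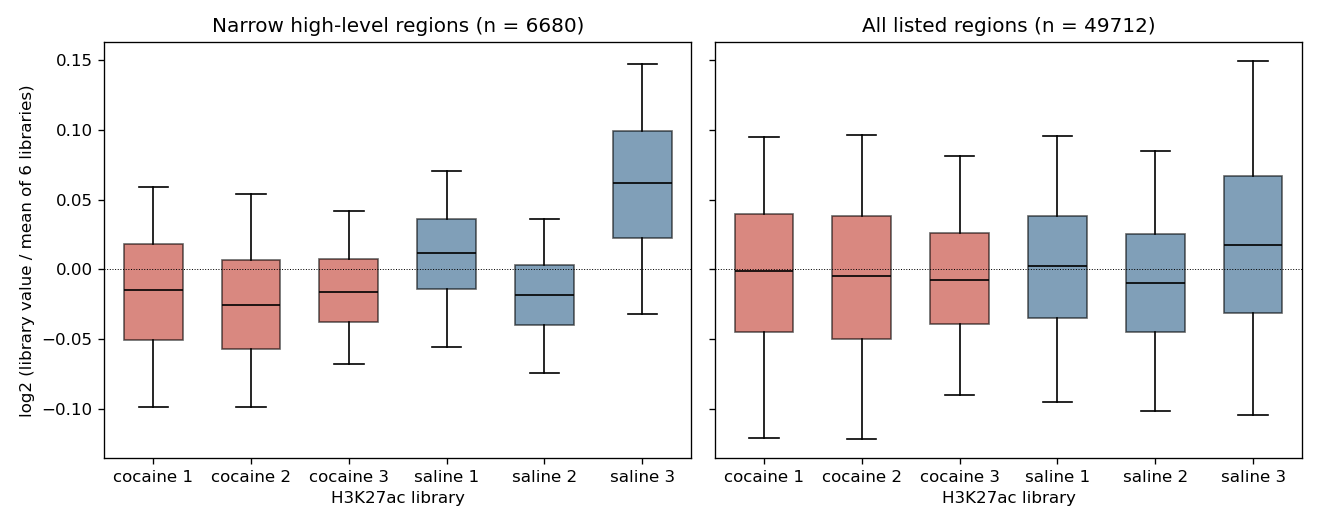
The log2 of each library's value over the mean of the 6 libraries, for the 6680 chosen regions on the left and all 49712 listed regions on the right, with cocaine in red and saline in blue. Boxes span the interquartile range, lines are medians and whiskers reach the 5th and 95th percentiles; the third saline library has a median of 0.062 in the chosen regions and 0.018 in the whole list.

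Spread within a group was small. The median coefficient of variation of the regions was 2.45% among the cocaine libraries and 3.57% among the saline libraries, compared with 3.15% and 3.60% in the whole list. It was smaller in the broad regions of the same level, at 1.896% in cocaine and 3.002% in saline. Narrow regions of this level that missed only the limit on the ratio had 4.09% in cocaine and 6.72% in saline. The limit on the ratio thus left out regions of wider spread, so the small spread is partly a property of the choice. For counting reads alone, the expected coefficient had a median of 3.13% in 1 library at these depths. It was 4.83% in the narrow autosomal regions under 550 per kb, which have fewer reads. A coefficient computed from 3 libraries falls below its expected value more often than not. The observed medians and these expected values are therefore not like measures. Over the regions, the mean squared difference divided by the counting variance was 0.671, 0.938 and 0.870 for the pairs of cocaine libraries, and 0.889, 1.45 and 2.66 for the saline pairs, the larger values being those with the third library. All cocaine pairs and the first with the second saline library thus differed by less than counting noise in these regions. Between libraries labelled as different treatments, the third cocaine library had 0.627 with the second saline library and 0.970 with the first, and the other pairs ran from 1.01 to 4.03. Over the whole list the third cocaine library had 0.929 with the second saline library and 1.11 with the first. The limit on the ratio used these libraries, so it bears on the differences between treatments in the chosen regions. Each library was kept as 1 sample, as labelled, and whether libraries share material was not tested. Counting the first and second saline libraries as 1 sample changed the median log2 ratio to -0.047.

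Some single regions were far steadier than others. At chr4:106627401-106628400 the cocaine libraries had 787.5, 784.1 and 787.2 normalised counts and the saline libraries 775.7, 779.6 and 776.2. The groups did not overlap there, although the log2 ratio was 0.017. At chr15:27789501-27791100 the cocaine libraries had 939.0, 937.3 and 936.8 normalised counts and the saline libraries 942.8, 931.9 and 944.1, with the cocaine values inside the saline range. Averaged over both groups, the coefficient of variation was widest at chr14:119537501-119538700, at 6.83% in cocaine and 8.83% in saline, with 627.3, 703.0 and 711.9 normalised counts in cocaine and 710.4, 702.5 and 820.1 in saline. The first cocaine library was the lowest and the third saline library the highest of the 6 there.

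The regions come from a list of calls, so each carries the caller's own statistics, which used the same libraries as the limit on the ratio. In the authors' deposited table the best window of a region had a median p-value of 1.3e-10 and at most 9.6e-05. The median over the whole list was 7.6e-11, so a small window p does not set these regions apart. The log2 change of that window was 0.15 or more in size at 244 regions and had the opposite sign to the region at 6. By the authors' adjusted p-value below 0.05, 4153 of the regions (62.2%) were called, beside 65.9% of the whole list. With limma on log2(value + 1), adjusted by Benjamini-Hochberg over the whole list, 754 regions (11.3%) passed an adjusted p of 0.05 as lower in cocaine and 3 (0.0449%) as higher, beside 9.62% and 3.42% of the list. The groups did not overlap at 1324 regions (19.8%), beside 29.1% of the list, and all cocaine libraries lay below all saline libraries at 1202 of the regions, beside 17.1% of the list. Since the limit on the ratio used this contrast, nothing is read from these counts. Limma's counts depended on the libraries used, from 757 of the chosen regions and 6479 of the whole list with all 6. Without the third saline library it called 113 of the chosen regions, 97 lower and 16 higher, and 3696 of the list. Without the first cocaine library it called 97 of them and 3082 of the list, without the second cocaine library 91 and 3055, and without the third cocaine library 745 and 5710. Without the first saline library the counts were 401 and 4913, and without the second saline library 1312 and 6918. With each region's own variance it called 0 of the chosen regions and 2 of the list. At an unadjusted p below 0.05 that fit had 506 of the chosen regions (7.57%) and 8528 of the list (17.2%). Cyclic loess scaling gave 370 lower and 158 higher among the chosen regions, and 7449 calls in the list.

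The lowest p of the lower calls belonged to chr3:88355801-88358300, with 1553, 1521 and 1594 normalised counts in cocaine and 1691, 1694 and 1789 in saline. Every cocaine value there was below every saline value, and the limma log2 change was -0.15 ± 0.036 (SE). At chr16:44137901-44140500 the cocaine libraries had 1602, 1604 and 1637 normalised counts and the saline libraries 1765, 1720.2 and 1879. These groups did not overlap either, and the log2 change was -0.15 ± 0.036 (SE). Among the 3 regions called higher, chr15:88681201-88682600 had 802.8, 812.8 and 839.0 normalised counts in cocaine and 717.6, 791.2 and 739.9 in saline. Its log2 change was 0.13 ± 0.041 (SE), with no overlap between the groups. At chr2:117057701-117060400 the cocaine libraries had 1621, 1720.4 and 1581 normalised counts and the saline libraries 1494, 1512 and 1558, again without overlap. The third, chr9:121921301-121922500, had 774.1, 715.9 and 717.8 normalised counts in cocaine and 715.5, 674.6 and 643.3 in saline, where the lowest cocaine value stood above the highest saline value by less than 1 count.

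Many of the regions lay on top of another listed region. This was so for 3413 of the 6680 (51.1%), against 43.9% of the broad regions of the same level, 31.0% of the whole list and 27.8% of the narrow autosomal regions under 550 per kb. Among the 821 pairs in which both overlapping regions were chosen, 795 (96.8%) had opposite directions, as did 94.9% of the 8939 overlapping pairs in the list. The share was close to that of the whole list, so nothing is read from it about the chosen regions. The part that the caller's joining of windows has in it was not tested. The 6680 regions merged into 5868 separate loci, of which 5150 held 1 region, 644 held 2, 59 held 3, 10 held 4 and 5 held 5. Overlapping regions share reads and are not independent. Of the 3267 regions that overlapped no other, 80.0% were lower in cocaine, with a median log2 ratio of -0.053. At the other end, 1041 regions (15.6%) were over 10000 bp from any other listed region, compared with 21.1% of the list. The most isolated was chr1:111878201-111879800, 2432500 bp from the nearest other region, with 927.5, 901.7 and 947.5 normalised counts in cocaine and 940.8, 958.9 and 1035 in saline. Its groups overlapped through the first saline and the third cocaine library. At chr14:96916801-96918200, which lay 1648400 bp from any other, the cocaine libraries had 826.8, 784.1 and 807.7 normalised counts and the saline libraries 774.6, 804.7 and 774.0, also with overlap.

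A locus of 5 regions at chr7:4070901-4077400 shows the alternation that most overlapping pairs of the whole list had. Its first region, chr7:4070901-4073200, had 2335, 2289.9 and 2348 normalised counts in cocaine and 2384, 2298 and 2560.1 in saline, a log2 ratio of -0.055. The next, chr7:4073101-4074100, had 874.8, 831.5 and 878.1 in cocaine and 821.5, 819.1 and 872.8 in saline, a log2 ratio of 0.040. The groups overlapped in both. The remaining 3 regions of the locus had log2 ratios of -0.017, 0.033 and -0.027 in order of position. The other loci of 5 regions, at chr1:174239601-174245400, chr12:101547601-101554600, chr19:10362801-10366800 and chr9:62368201-62377000, alternated in the same way along their whole length, with every log2 ratio between -0.055 and 0.039. These loci were picked for their number of regions after the data were seen.

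Against input, which measures how much DNA a locus gives without antibody, the regions had a median deposited ratio of 6.06 in cocaine and 6.27 in saline. The whole list had 4.0 in cocaine and 4.03 in saline, and the narrow autosomal regions under 550 per kb had 3.72 and 3.73. The 592 broad regions of the same level had 6.06 in cocaine and 6.25 in saline, close to the narrow ones. Input itself was worked back from the deposited group mean and ratio. So derived, it was similar across these sets. Its median was 108 normalised counts per kb in cocaine and 107 in saline at the chosen regions. In the whole list it was 100.2 and 99.8. Among the chosen regions the derived input rose with level, with a Spearman's rho of 0.26 in cocaine and 0.28 in saline. Spearman's rho between level and ratio to input was 0.58 in cocaine and 0.62 in saline over the 6680 regions, where the level is the numerator of the ratio. Each ratio rests on 1 input library, so it has no replicate error.

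A few regions had high counts in the input as well. The lowest ratio was at chr11:3091901-3093400, with 0.40 in cocaine and 0.49 in saline. Input there, derived in the same way, was 1653 normalised counts per kb in cocaine and 1422 in saline. Its H3K27ac values were 966.9, 975.9 and 1033 normalised counts in cocaine and 1010.1, 1051 and 1074 in saline, so the groups overlapped. On chromosome 2, chr2:98502701-98503700 had ratios of 0.74 in cocaine and 0.91 in saline, and chr2:98507001-98508000 had 0.88 in cocaine and 1.13 in saline. The ratios at chr15:74917101-74918100 were 0.86 in cocaine and 1.05 in saline. In all, 2 of the 6680 regions were below 1 in both treatments, 4 were below 1 in at least 1, and 8 were below 3. At the other end stood chr19:5846101-5847100 with 11.8 in cocaine and 12.4 in saline, and its H3K27ac values of 846.0, 873.1 and 865.4 normalised counts in cocaine and 843.9, 836.5 and 865.1 in saline overlapped.

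**Figure D4:**
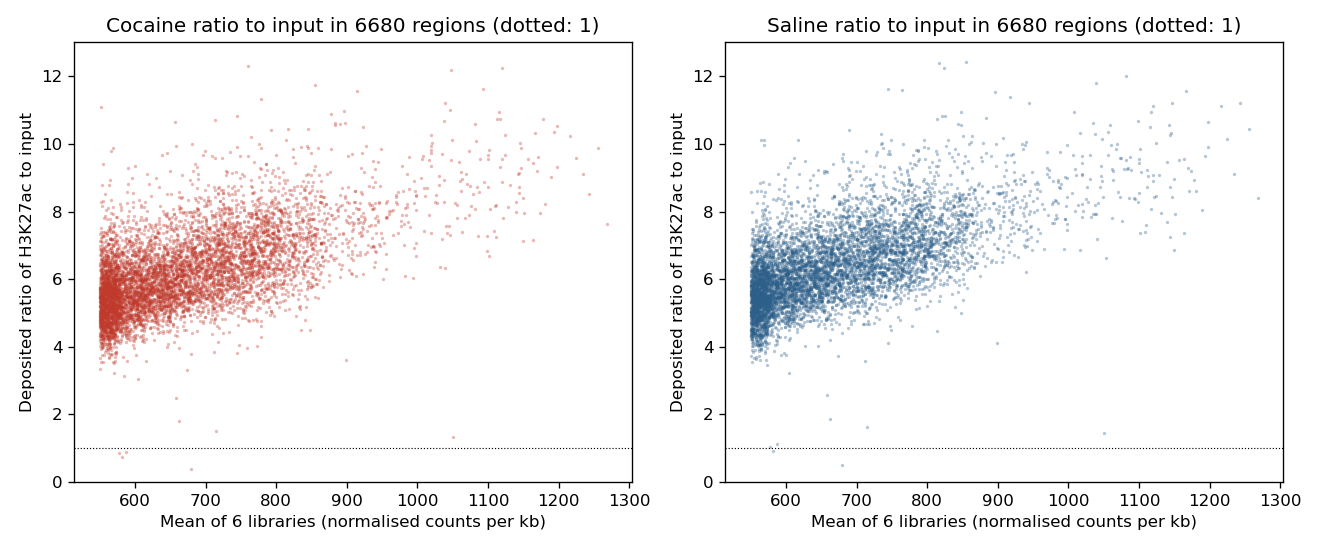
The deposited ratio of H3K27ac to input against the mean level of the 6 libraries in normalised counts per kb, 1 point per chosen region, for cocaine on the left and saline on the right. The median ratio is 6.06 in cocaine and 6.27 in saline, and the 4 points below the dotted line at 1 in cocaine and the 2 in saline include chr11:3091901-3093400 in both.

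The 5hmC list was made from other libraries and did not enter the choice of regions. Its treatment values were taken as cocaine and its control values as saline, as in the H3K27ac list. Every 5hmC direction given here rests on that reading. Of the 11748 5hmC regions, which the authors listed as differing between cocaine and saline, 134 (1.14%) overlapped 138 of the H3K27ac regions. That is 2.07% of the 6680, with an exact Clopper-Pearson 95% interval of 1.74% to 2.44% that covers counting error only. In the whole H3K27ac list the share was 2.27%, and in the narrow autosomal regions under 550 per kb it was 2.17%. Per Mb covered, counting shared bases once, the chosen regions overlapped 12.9 of these 5hmC regions, against 15.4 in the whole list, 12.2 in the broad regions of the same level and 16.03 in the narrow regions under 550 per kb. The differences between these densities were not tested.

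Of the 134 5hmC regions, 86 were listed as higher in cocaine and 48 as lower, so that 64.2% were higher, beside 58.5% of the whole 5hmC list. Among the 138 overlaps, 5hmC was higher in 37 and lower in 17 where H3K27ac was higher, and higher in 52 and lower in 32 where H3K27ac was lower. Summed over the 134 regions, 5hmC was 1220.2, 1243 and 1263 normalised counts in the cocaine libraries and 904.6, 1012 and 966.2 in the saline libraries. All cocaine libraries lay above all saline libraries. The means with their SD over 3 libraries were 1242 ± 21.2 in cocaine and 960.9 ± 53.9 in saline, a log2 ratio of 0.37. A two-sided exact permutation test over libraries gave p = 0.1, the smallest that 3 against 3 allow. The whole 5hmC list, summed in the same way, had a log2 ratio of 0.26, and the difference between these ratios was not tested. These regions were listed because they differed between the same libraries, and their depth was low, with a median of 6.5 to 9 reads per library in cocaine and 5 to 6 in saline.

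**Figure D5:**
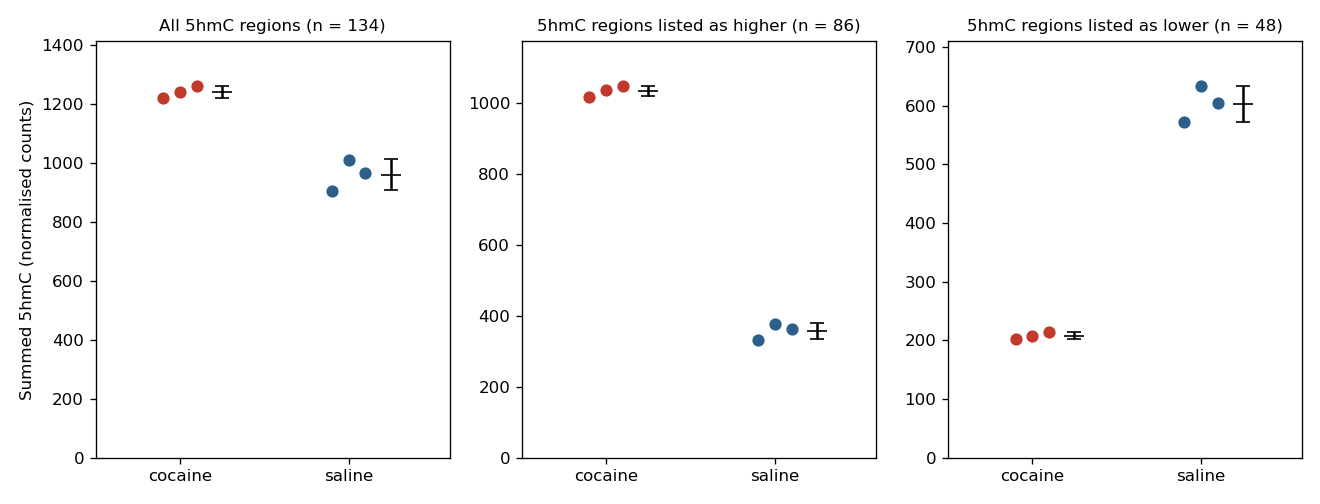
Summed 5hmC in normalised counts at the 134 5hmC regions that overlap the chosen regions, and at the 86 listed as higher and the 48 listed as lower in cocaine, 1 point per library with the mean and SD beside the points. Over all 134 the cocaine libraries lie between 1220.2 and 1263 and the saline libraries between 904.6 and 1012; the other panels split the regions by the direction in which they were listed.

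The largest 5hmC increase listed at these regions lay at chr1:93075681-93075880, inside the H3K27ac region chr1:93075601-93077700. It had 4.80, 4.94 and 7.19 normalised 5hmC counts in cocaine and 0.00, 0.00 and 1.97 in saline, while H3K27ac had 1794, 1781 and 1762 in cocaine and 1868, 1762 and 1912 in saline. The 5hmC groups did not overlap, and those of H3K27ac did. At chr12:14155661-14155860, within chr12:14155501-14156900, 5hmC was 0 in all 3 cocaine libraries and 6.28, 5.15 and 4.93 normalised counts in saline, at least 5.29-fold lower when 3 reads over the cocaine group are taken as the floor. H3K27ac there had 1041, 972.9 and 966.1 normalised counts in cocaine and 991.7, 949.2 and 958.4 in saline, with overlap. At chr3:14886941-14887140, within chr3:14886601-14888300, 5hmC was 0.00, 1.23 and 0.90 normalised counts in cocaine and 5.38, 8.24 and 4.93 in saline. In cocaine the first library was at 0 there, and the groups did not overlap. At chr16:22266761-22266960, which runs over the end of chr16:22265801-22266800, 5hmC had 6.73, 7.41 and 5.39 normalised counts in cocaine and 0.90, 1.03 and 0.99 in saline. H3K27ac at that region had 565.0, 566.6 and 540.8 normalised counts in cocaine and 554.5, 574.4 and 596.1 in saline, so the 5hmC groups stood apart while the H3K27ac groups overlapped. The authors' adjusted p-values of the 134 regions ran from 0.0578 to 0.149 in their deposited table.

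The authors also deposited intervals named as cocaine-specific and saline-specific 5hmC enhancers. Of the 6680 regions, 32 overlapped a cocaine-specific interval (0.479%, exact 95% interval 0.328% to 0.676%) and 10 a saline-specific one (0.15%, exact 95% interval 0.0718% to 0.275%). In the whole H3K27ac list the shares were 0.410% for cocaine-specific and 0.243% for saline-specific intervals. The broad regions of the same level had 0.507% and 0.676%, and the narrow autosomal regions under 550 per kb 0.396% and 0.257%. Per Mb covered, the chosen regions overlapped 3.08 cocaine-specific and 0.962 saline-specific intervals, against 2.82 and 1.69 in the whole list. These differences were not tested. The 32 and 10 intervals at the chosen regions were 0.303% of the 10575 cocaine-specific and 0.0947% of the 10555 saline-specific ones.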

How the data were processed

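The data are H3K27ac ChIP-seq (3 cocaine, 3 saline and 1 input library per treatment) and 5hmC capture (3 cocaine and 3 saline) from mouse nucleus accumbens. The submitters' processing notes name Bowtie 0.12.9 and the mm9 build. H3K27ac regions were called with diffReps 1.54 in windows of 1000 bp moved by 100 bp at a window p-value of at most 0.0001, per the file headers. The deposited tables give normalised counts per library, whose divisors in the H3K27ac table are in the file headers (0.91 to 1.04). With these divisors refitted to more digits from the values (0.911 to 1.04), all H3K27ac values came back to whole reads within 0.1 read. The deposited signal of a group is the mean of its 3 normalised counts, and the deposited ratio divides it by the input library. The log2 change and the p-value or adjusted p-value of a region or window are also the authors'. For the 5hmC table, the caller was not given in the sources used here. Its treatment was taken as cocaine and its control as saline, as in the H3K27ac table. Only regions past the callers are listed, and the limits on H3K27ac were applied to that list.

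Levels, ratios, coefficients of variation and overlaps of at least 1 bp were computed with Python 3.11.15, numpy 2.4.6, pandas 2.3.3 and scipy 1.17.1, and drawn with matplotlib 3.10.9. All 49712 regions entered limma 3.58.1 (R 4.3.3) on log2(value + 1), a scale that understates the change of low regions, with trend and robust moderation and Benjamini-Hochberg adjustment, after a test on simulated data. The members of the set and the comparisons were chosen with earlier results of these data known. Regions named are the 10 highest, those nearest each limit, and those with extreme 5hmC change, input ratio, spread or limma p, of which the clearest are described. Alternatives were other limits, scaling, moderation and leaving out each library. A library labelled as cerebellum in 1 field and nucleus accumbens in another was left out, and 0 per-library columns were unused. Intervals and the floor of 3 reads cover counting error only.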

Additional observations from a re-analysis of the deposited data

How the results depend on the processing

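Of 73 recomputed values over all results and alternatives, 59 stayed within the limits set for them and 14 moved. These limits differed between results and could be wide. For the median log2 ratio of -0.037 the limit was a difference of 0.0287. The value of -0.018 without the third saline library was therefore counted as having stayed. The tally is thus not read as a measure of how firm the results are. Only the log2 ratios of H3K27ac and of summed 5hmC could change sign, and 0 of these ratios did. The other values were counts, levels, ratios to input, spreads or shares, which cannot be negative. The number of regions was 14953 at a limit of 450 per kb and 3278 at 650 per kb, against 6680, since a lower limit admits more of the list by construction. Leaving out 1 library at a time gave between 6258 and 6856 regions. The median log2 ratio was -0.0085 after cyclic loess scaling, and -0.054 to -0.018 when 1 library at a time was left out. The number of regions past limma was 228 at an adjusted p of 0.01, 0 with each region's own variance, and 91 to 1312 when 1 library at a time was left out, against 757. Within 1000 bp, 4.36% of the regions lay near a listed 5hmC region, 0.898% near a cocaine-specific interval and 0.374% near a saline-specific one, a wider net by construction. With 5hmC regions at an adjusted p below 0.1, 0.0150% of the regions (1) overlapped one. The log2 ratio of the 5hmC sums was 0.33 to 0.41 with 1 library left out, where the exact permutation p of 0.2 is the smallest possible.

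No paired analysis was possible because the labels give the groups no shared replicate numbers. The planned count test with edgeR was not run, and no share at gene starts was computed without an mm9 annotation. The third saline library, the overlap of regions and the caller's choice of regions limit what the ratios show. The 5hmC regions had a median of only 5 to 9 reads per library.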
